A study of Mus musculus with 12 samples.

Results

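The genes of cholesterol and fatty acid synthesis were followed across 4 genotypes of a mouse pancreatic tumour line. The set holds 33 genes, taken by symbol for their place in these pathways, of which 23 belong to the sterol branch and 10 to the fatty acid branch. The choice was made with earlier results of these data known. All 33 were among the 13662 genes that were tested, out of 24493 gene symbols in the table. The cells are named 6649c2. They carry the strain label C57BL/6, were grown as tumours implanted under the skin, and were recovered from those tumours by sorting, with a gate not given in the sources used here, and their total RNA was sequenced. There were 3 libraries each of the genotype labelled WT and of cells labelled as knockouts of Egfr (EgfrKO), Klf5 (Klf5KO) or Smad4 (Smad4KO), 12 in all. No other treatment, time point or age is named for any group. Nothing in the labels tells if a knockout line is 1 clone or a pool of cells, or if each replicate came from its own tumour. The p-values given here thus reflect library-to-library spread, which may be technical.

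Cells make cholesterol from acetyl-CoA through mevalonate, isoprenoid diphosphates and squalene, and they make fatty acids from the same acetyl-CoA through malonyl-CoA. Transcription of both pathways is driven by the SREBP proteins: SREBP-2, the product of Srebf2, acts mainly on the sterol enzymes, and SREBP-1, the product of Srebf1, mainly on the fatty acid enzymes. When sterols are plentiful, the INSIG proteins hold SREBP and its escort SCAP in the endoplasmic reticulum, and when sterols run low the complex moves to the Golgi, where SREBP is cut and released. Cells can also take up both kinds of lipid from their surroundings.

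Expression was measured as TPM, a length-corrected measure in which every library has the same total, and each value is therefore relative to the other transcripts in the same library. The tests were made with limma on log2(TPM + 1), a scale that understates the change of low genes, and a gene is said to have risen or fallen where its adjusted p was under 0.05 over all genes tested. A shift of the whole distribution bears on every value below. The median log2 fold change of all tested genes was 0.14 in EgfrKO, 0.31 in Klf5KO and 0.10 in Smad4KO against WT, and 55.2% of genes rose in Klf5KO against 11.1% that fell. Counts of genes that rose or fell with all libraries in the fit are therefore also given after median-of-ratios scaling. This multiplies each library by a constant so that most genes are level, and it brought those medians to 0.03, 0.02 and 0.01. It is called the scaled value below. Which of the 2 scales is nearer to transcripts per cell cannot be told from TPM. For fits with a library left out, the share of all tested genes that passed is not given. A changed count of members there may hold for all genes alike.

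Egfr measured 12.3, 14.0 and 13.1 TPM in WT and 5.16, 3.77 and 3.94 in EgfrKO, and its means in Klf5KO and Smad4KO, 6.93 and 7.95 TPM, were also below WT. Smad4 measured 70.9, 75.7 and 79.8 TPM in WT and 29.8, 33.4 and 28.9 in Smad4KO. Klf5 measured 97.1, 109 and 130 TPM in WT and 100, 87.8 and 93.2 in the libraries labelled Klf5KO, 83.6% of the WT mean, so transcript level is no check of that label. Statements about Klf5KO below concern libraries carrying that label. The libraries carried high epithelial keratins, with Krt8 at 1820 to 3426 TPM and Krt18 at 1808 to 3114. The summed level of 7 epithelial markers, led by these keratins, was 5368 to 5820 TPM in WT, 7184 to 7678 in EgfrKO, 4576 to 5107 in Klf5KO and 7716 to 8682 in Smad4KO. Of the 7, 1 was under 1 TPM in every WT library, 2 in every EgfrKO library, 3 in Klf5KO and 1 in Smad4KO. Single markers did not all follow the sum. As deposited against WT, Krt8, Krt19 and Cdh1 rose in EgfrKO while Epcam and Cldn7 fell. In Klf5KO Cdh1 rose while Epcam, Krt18, Krt19 and Cldn7 fell. In Smad4KO Epcam, Krt8, Krt18, Krt19, Cdh1 and Cldn7 rose. Markers of other cells were present at lower levels, and some differed between groups. Of 8 macrophage markers none passed against WT in EgfrKO or Klf5KO, and 2 fell in Smad4KO, as deposited and scaled. The sum of 8 macrophage markers, led by Lyz2 and C1qa, was 733 to 1459 TPM in WT, 1234 to 1331 in EgfrKO, 1043 to 1668 in Klf5KO and 182 to 804 in Smad4KO, and the sum of 8 fibroblast markers, led by Col1a1 and Col1a2, was 54.0 to 136, 120 to 130, 291 to 612 and 51.1 to 77.0. The sum of 5 leukocyte markers, led by Laptm5 and Cd52, was 97.3 to 127, 151 to 156, 157 to 235 and 50.3 to 93.7 TPM in the same order, and 4 endothelial markers, led by Cdh5 and Pecam1, summed to 2.26 to 3.09, 6.17 to 8.39, 11.4 to 14.2 and 2.07 to 3.09 TPM, highest in Klf5KO without overlap. Of 7 adipocyte markers, 5 were under 1 TPM in all libraries, with Lep listed at 0 in each of them. All 4 skeletal muscle markers, Tnnt3 and Acta1 among them, were also under 1 TPM. The part of other cells in the results below was not tested. In bulk libraries fewer cells of a type and less RNA per cell cannot be told apart.

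In WT the levels of the members, which TPM gives per transcript length, differed widely. Scd2, a stearoyl-CoA desaturase, was the highest in WT at 354 ± 16.6 TPM (SD, n = 3), followed by Fdps, farnesyl diphosphate synthase, at 204 ± 14.9, Srebf2 at 143 ± 4.04 and Msmo1, a methylsterol oxidase, at 128 ± 5.22. Acly, ATP citrate lyase, followed at 89.9 ± 3.99 TPM. The next 3 in order, Srebf1 at 82.2 ± 2.91, Fads2 at 82.0 ± 5.69 and Hmgcs1 at 81.9 ± 6.83 TPM, did not differ beyond their spread. The lowest were Lss, lanosterol synthase, at 9.82 ± 0.871 TPM, Elovl6, a fatty acid elongase, at 8.17 ± 0.606, Hsd17b7, a ketosteroid reductase of the sterol pathway, at 6.22 ± 0.457, and Acss2, the cytosolic acetyl-CoA synthetase, at 3.87 ± 0.153. Scd1 and Scd2 are close paralogs, as are Acat2 and Acat3, Idi1 and Idi2, and Fads1 and Fads2, and how reads shared by such copies were divided in the deposited values was not tested.

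The sterol branch was lowest in the Klf5KO-labelled libraries. Of its 23 genes 12 fell and 3 rose there against WT, where 11.1% of all tested genes fell and 55.2% rose, and after scaling 20 fell and none rose, against 25.5% and 27.0% of all genes. The median log2 fold change of the branch was -0.21 as deposited and -0.53 scaled. Quantile normalization, which gives all libraries the same distribution, left 18 that fell and none that rose, beside 23.1% and 27.0% of all genes. The 12 that fell were Acat2, Pmvk, Idi1, Fdps, Fdft1, Sqle, Tm7sf2, Msmo1, Hsd17b7, Sc5d, Dhcr7 and Insig1, and the 3 that rose were Mvk, Ebp and Scap, of which each had a negative value after scaling (-0.07, -0.15 and -0.02, none past the threshold). The falls of 8 genes, Pmvk, Idi1, Fdps, Fdft1, Tm7sf2, Msmo1, Sc5d and Insig1, were kept in every alternative processing and without each library in turn. The other 4 calls were lost when single libraries were left out. Acat2 lost its call without WT replicate 2 or Klf5KO replicate 2 (limma adjusted p = 0.110 and 0.0988), and Sqle without WT replicate 1, WT replicate 2 or Klf5KO replicate 2 (0.0569, 0.0711 and 0.0879). Hsd17b7 lost it without WT replicate 2 or 3 or Klf5KO replicate 2 or 3 (0.0815 to 0.131), and Dhcr7 without any WT library or Klf5KO replicate 2 or 3 (0.0534 to 0.136). Without WT replicate 2, or without Klf5KO replicate 2, 8 sterol genes fell. Of the 3 rises, the one in Scap was kept without each library, whereas Mvk lost its call without WT replicate 2 (0.113) or 3 (0.182) or Klf5KO replicate 1 (0.117) or 3 (0.118), and Ebp without WT replicate 1 (0.117) or 3 (0.0944) or Klf5KO replicate 1 (0.114) or 3 (0.112).

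In EgfrKO the sterol counts as deposited were near the background. Against WT 8 of the 23 genes rose and 4 fell, beside 31.3% and 12% of all tested genes, and after scaling 6 rose and 8 fell, beside 20.4% and 19.9%. The median log2 fold change was 0.04 as deposited and -0.08 scaled. After quantile normalization 5 rose and 6 fell, beside 18.4% and 20.2% of all genes. Those that rose, Acat2, Mvk, Pmvk, Mvd, Fdps, Lss, Tm7sf2 and Ebp, are all enzymes, and those that fell included the regulators Srebf2, Insig1 and Insig2 besides the enzyme Hsd17b7. The rises of Acat2, Pmvk, Fdps, Tm7sf2 and Ebp and the fall of Insig2 were kept in every alternative processing and without each library. Without WT replicate 3, Mvk and Mvd lost their calls (limma adjusted p = 0.0629 and 0.0521), as did Srebf2 (0.0502). The Insig1 call was lost without WT replicate 2 or 3 or any EgfrKO library (0.0592 to 0.0837), and that of Hsd17b7 without WT replicate 2 or 3 or EgfrKO replicate 2 or 3 (0.0839 to 0.142). Without WT replicate 3, 6 sterol genes rose and 1 fell, and 2 fell without WT replicate 2 or EgfrKO replicate 2 or 3.

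In Smad4KO 7 sterol genes rose against WT, namely Hmgcs1, Acat2, Pmvk, Fdps, Lss, Tm7sf2 and Sc5d, and 3 fell, namely Msmo1, Hsd17b7 and Srebf2. These counts stand beside 32.2% and 17.4% of all tested genes, and after scaling 5 sterol genes rose and 6 fell, beside 25.7% and 24.4%. The branch median was 0.10 as deposited and 0.00 scaled. After quantile normalization 3 rose and 5 fell, beside 23.2% and 25.7% of all genes. The rises of Acat2, Pmvk and Fdps and the fall of Hsd17b7 were kept in every alternative processing and without each library. Hmgcs1 lost its call without WT replicate 1 or 3 or Smad4KO replicate 1 or 2 (limma adjusted p = 0.0510 to 0.153), Lss without WT replicate 1 or Smad4KO replicate 1 or 2 (0.05 to 0.0638), and Tm7sf2 without WT replicate 2 or Smad4KO replicate 2 (0.0609 and 0.0571). Msmo1 lost it without WT replicate 2 or 3 or Smad4KO replicate 1 or 3 (0.0637 to 0.120), and Srebf2 without WT replicate 1 or 3 or Smad4KO replicate 1 or 3 (0.0644 to 0.0961). Without Smad4KO replicate 2, 4 sterol genes rose. The number that fell was 1 without WT replicate 3 or Smad4KO replicate 1 or 3, and 2 without WT replicate 1 or 2.

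**Figure D1:**
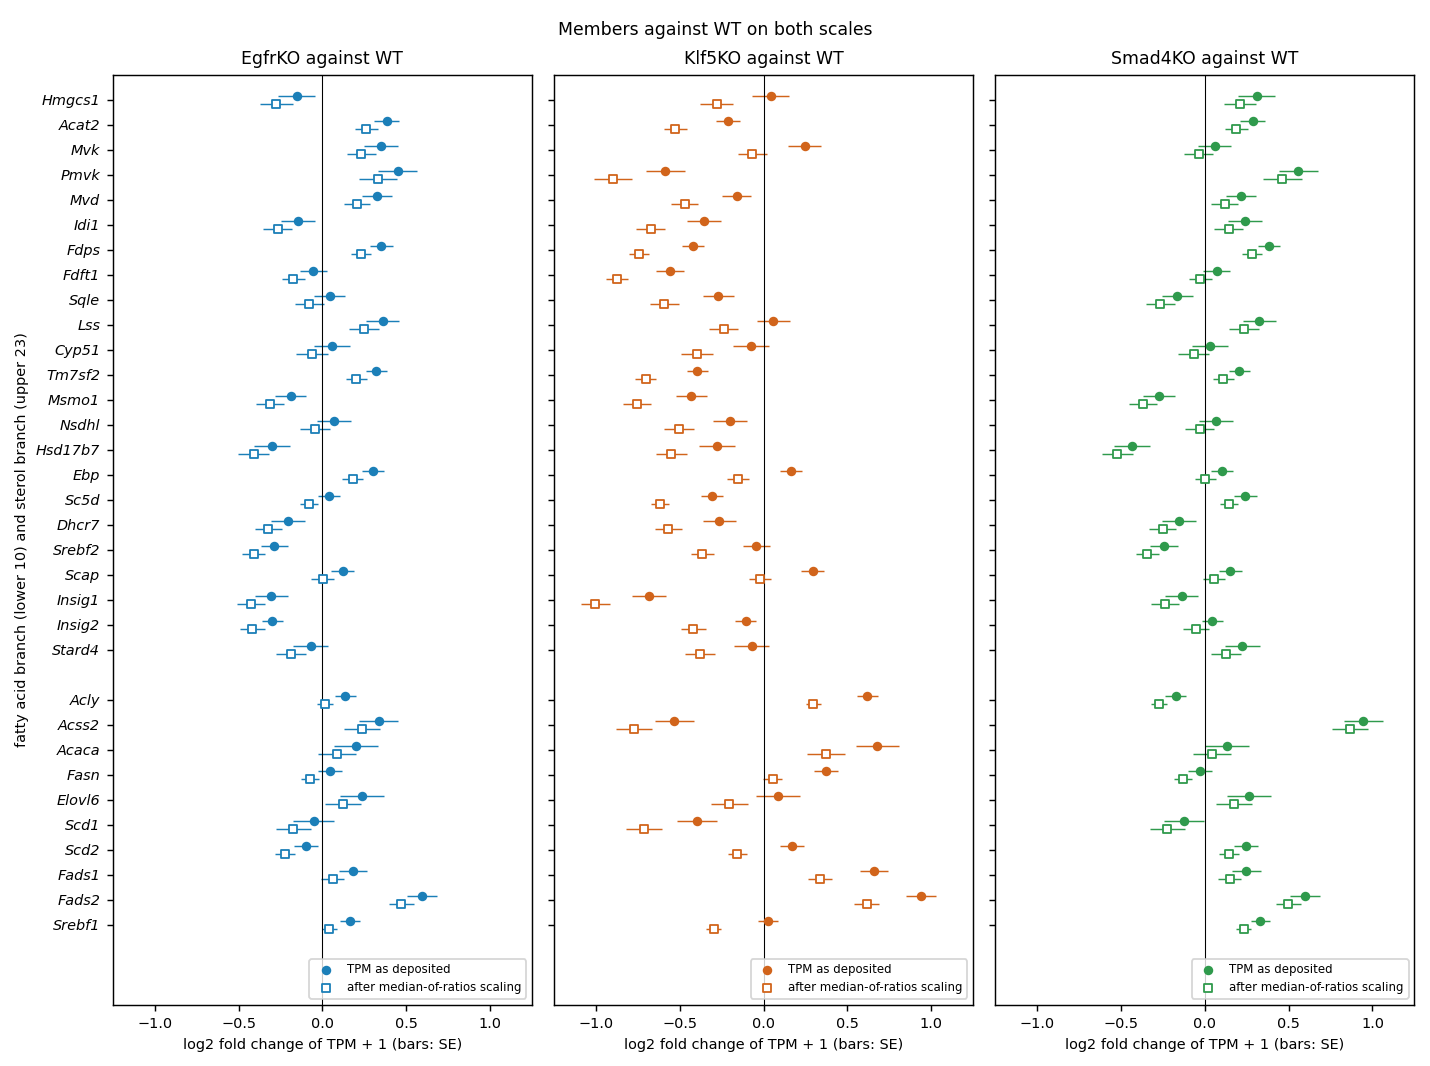
Log2 fold change of TPM + 1 against WT (horizontal axis) of the 23 sterol branch genes (upper rows) and the 10 fatty acid branch genes (lower rows) in EgfrKO, Klf5KO and Smad4KO, with filled circles for TPM as deposited, open squares after median-of-ratios scaling and bars for the SE of the limma fit. In the Klf5KO panel all 23 squares of the sterol branch lie below 0, with Insig1 lowest at -1.003, while Fads2 and Acly lie above 0 on both scales.

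The enzymes at the head of the pathway turn acetyl-CoA into mevalonate and its phosphates. Acat2, the cytosolic thiolase that joins acetyl-CoA units (chr17:12943042-12960725), measured 37.8, 44.8 and 38.3 TPM in WT, 53.6, 51.5 and 52.9 in EgfrKO, 37.3, 31.5 and 35.0 in Klf5KO and 48.4, 49.7 and 49.4 in Smad4KO. Every EgfrKO and Smad4KO library was above the highest WT library, and every Klf5KO library was below the lowest. Against WT, Acat2 differed by 0.38 ± 0.07 (log2, SE), -0.21 ± 0.07 and 0.29 ± 0.07 in EgfrKO, Klf5KO and Smad4KO, with limma adjusted p of 0.00164, 0.0240 and 0.00718, and scaled values of 0.26, -0.53 and 0.19. Hmgcs1, the synthase of hydroxymethylglutaryl-CoA (chr13:119690351-119708260), measured 76.0, 89.4 and 80.3 TPM in WT, 77.8, 72.7 and 69.8 in EgfrKO, 93.05, 70.7 and 90.5 in Klf5KO and 96.3, 117 and 92.9 in Smad4KO. Only the Smad4KO libraries stood clear of WT for Hmgcs1, at 0.31 ± 0.11 (limma adjusted p = 0.0384), and its scaled value of 0.21 did not pass (0.0936).

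Pmvk, phosphomevalonate kinase (chr3:89454541-89469014), had the largest difference between any pair of genotypes in the sterol branch, between Smad4KO and Klf5KO. It measured 31.0, 27.1 and 21.3 TPM in WT, 35.0, 37.6 and 35.5 in EgfrKO, 18.2, 15 and 18.1 in Klf5KO and 36.8, 40.2 and 40.0 in Smad4KO. The 3 Klf5KO libraries lay below all WT libraries, and the EgfrKO and Smad4KO libraries lay above them all. Against WT, Pmvk differed by 0.45 ± 0.12, -0.59 ± 0.12 and 0.56 ± 0.12 on the log2 scale, with limma adjusted p of 0.00945, 0.00092 and 0.00198, and scaled values of 0.33, -0.90 and 0.46. Mvk, mevalonate kinase, was 20.9 ± 2.91 TPM in WT, 26.8 ± 0.907 in EgfrKO, 24.9 ± 1.59 in Klf5KO and 21.8 ± 2.28 in Smad4KO. Mvd, mevalonate diphosphate decarboxylase, was 23.2 ± 2.86, 29.2 ± 0.452, 20.6 ± 1.85 and 27.0 ± 1.23 TPM in the same order, and it rose in EgfrKO alone of the contrasts with WT, at 0.32 ± 0.09 (limma adjusted p = 0.0121), a call lost after scaling (0.21, adjusted p = 0.0594).

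Isoprenoid diphosphates are joined next, and squalene is formed from them. Fdps (chr3:89093588-89101967) measured 214, 210 and 187 TPM in WT, 270, 251 and 258 in EgfrKO, 156, 142 and 156 in Klf5KO and 250, 288 and 260 in Smad4KO. As for Pmvk, which lies 353 kb away on chromosome 3, the Klf5KO libraries were all below WT and the other knockouts all above. Against WT, Fdps differed by 0.35 ± 0.07, -0.42 ± 0.07 and 0.38 ± 0.07, with limma adjusted p of 0.00169, 0.000209 and 0.000642, and scaled values of 0.23, -0.74 and 0.28. Idi1, isopentenyl diphosphate isomerase (chr13:8885606-8892396), measured 52.7, 55.1 and 45.8 TPM in WT, 47.4, 44.8 and 45.8 in EgfrKO, 44.8, 34.8 and 40.1 in Klf5KO and 59.6, 68.1 and 54.4 in Smad4KO. Its Klf5KO libraries were all below WT (-0.35 ± 0.10, limma adjusted p = 0.00962), while the other 2 knockouts overlapped WT. Fdft1, squalene synthase (chr14:63145150-63181687), measured 40.5, 45.3 and 38.6 TPM in WT, 41.9, 39.6 and 38.1 in EgfrKO, 28.8, 25.2 and 29.5 in Klf5KO and 43.8, 47.0 and 40.0 in Smad4KO. The Klf5KO libraries of Fdft1 were well below the rest, at -0.56 ± 0.08 against WT (limma adjusted p = 0.000114; scaled value -0.87), and the 3 other groups overlapped.

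The remaining enzymes carry squalene to cholesterol. Sqle, squalene epoxidase, was 78.2 ± 4.22 TPM in WT, 80.6 ± 0.452 in EgfrKO, 64.9 ± 8.38 in Klf5KO and 69.8 ± 7.08 in Smad4KO. Lss was 9.82 ± 0.871, 12.8 ± 0.202, 10.3 ± 1.27 and 12.5 ± 1.05 TPM in that order, and Cyp51, the lanosterol demethylase, was 48.7 ± 1.86, 50.8 ± 0.632, 46.4 ± 6.48 and 50.2 ± 7.47. Cyp51 passed the threshold in no contrast with WT as deposited. In Klf5KO it fell after scaling (-0.40, limma adjusted p = 0.00451) and after quantile normalization (-0.36, 0.0098). Tm7sf2, a sterol reductase (chr19:6062821-6067850), measured 23, 21.5 and 22.5 TPM in WT, 28.3, 28.8 and 27.3 in EgfrKO, 15.5, 17.4 and 17.4 in Klf5KO and 25.8, 26.9 and 25.0 in Smad4KO. The order EgfrKO, Smad4KO, WT, Klf5KO held without any overlap between neighbouring groups for this gene. Against WT, Tm7sf2 differed by 0.32 ± 0.06, -0.40 ± 0.06 and 0.21 ± 0.06 in EgfrKO, Klf5KO and Smad4KO (limma adjusted p = 0.00157, 0.00016 and 0.0157), and the scaled value in Smad4KO, 0.11, did not pass (0.167).

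Msmo1 (chr8:64718123-64733578) measured 123, 134 and 126 TPM in WT, 119, 106 and 110 in EgfrKO, 102, 81.4 and 102 in Klf5KO and 97.1, 118 and 102 in Smad4KO. All knockout libraries of Msmo1 were below all WT libraries, and the fall passed in Klf5KO (-0.43 ± 0.09, limma adjusted p = 0.00173) and in Smad4KO (-0.27 ± 0.09, 0.0314) but not in EgfrKO (-0.19 ± 0.09, 0.125; after scaling -0.31, 0.0121). Hsd17b7, which acts beside Msmo1 and Nsdhl in removing methyl groups from the sterol ring, was 6.22 ± 0.457 TPM in WT, 4.86 ± 0.510 in EgfrKO, 4.97 ± 0.584 in Klf5KO and 4.35 ± 0.395 in Smad4KO. No knockout library reached the lowest WT value of Hsd17b7, and all 3 contrasts with WT, which share the WT libraries, passed as deposited (limma adjusted p = 0.0396, 0.0382 and 0.00569) and scaled (0.00477, 0.000498 and 0.000703). Nsdhl, a sterol dehydrogenase, was 16.1 ± 0.632, 17.0 ± 0.501, 13.9 ± 1.44 and 17.0 ± 2.53 TPM in WT, EgfrKO, Klf5KO and Smad4KO, and passed in no contrast with WT as deposited. Ebp, the sterol isomerase, was 47.6 ± 2.01, 58.9 ± 3.36, 53.5 ± 2.87 and 51.2 ± 3.07 TPM in that order and rose in EgfrKO at 0.30 ± 0.06 (limma adjusted p = 0.00304; scaled 0.18, 0.0459).

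Sc5d, the desaturase of the last steps (chr9:42251592-42264300), measured 25.3, 25.5 and 24.8 TPM in WT, 26.9, 24.9 and 26 in EgfrKO, 21.7, 18.6 and 20.3 in Klf5KO and 30.6, 31.3 and 28.1 in Smad4KO. The Smad4KO libraries were the highest and the Klf5KO libraries the lowest, both clear of WT, with EgfrKO overlapping WT. Against WT, Sc5d differed by -0.31 ± 0.07 in Klf5KO (limma adjusted p = 0.00153; scaled -0.62) and by 0.24 ± 0.07 in Smad4KO (0.00987; scaled 0.15, 0.0387), the latter not past the threshold after quantile normalization (0.12, 0.0863). Dhcr7, the reductase that yields cholesterol, was 18.9 ± 0.631 TPM in WT, 16.3 ± 1.94 in EgfrKO, 15.6 ± 1.40 in Klf5KO and 16.9 ± 1.91 in Smad4KO. Stard4, a sterol carrier between membranes, was 20.0 ± 2.19, 18.9 ± 0.594, 19.0 ± 2.02 and 23.5 ± 2.91 TPM in that order and did not pass against WT as deposited.

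Among the regulators, Insig1 had the largest fall of the sterol branch in Klf5KO, where Srebf2 did not pass the threshold as deposited. Insig1, which retains SREBP when sterols are plentiful and is itself a target of SREBP (chr5:28071412-28078662), measured 68.4, 73.3 and 69.7 TPM in WT, 57.9, 57.9 and 55.0 in EgfrKO, 48.8, 37.6 and 44.8 in Klf5KO and 57.9, 74.1 and 61.0 in Smad4KO. The EgfrKO libraries were all below WT, the Klf5KO libraries were below those in turn, and the Smad4KO libraries overlapped WT. Against WT, Insig1 differed by -0.30 ± 0.10, -0.68 ± 0.10 and -0.14 ± 0.10, with limma adjusted p of 0.0287, 0.000104 and 0.275, and scaled values of -0.43, -1.003 and -0.24. Insig2, its paralog, measured 24.0, 23.6 and 26.5 TPM in WT, 19.4, 19.4 and 20.8 in EgfrKO, 22.2, 22.7 and 23.6 in Klf5KO and 26.3, 24.2 and 25.9 in Smad4KO. It was lowest in EgfrKO, at -0.30 ± 0.06 (limma adjusted p = 0.00285; scaled -0.42).

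Srebf2 (chr15:82147269-82205379) measured 144, 139 and 147 TPM in WT, 118, 118 and 116 in EgfrKO, 157, 122 and 140 in Klf5KO and 115, 133 and 115 in Smad4KO. It was below WT in every EgfrKO and Smad4KO library, and the Klf5KO libraries lay on both sides of WT. Against WT, Srebf2 differed by -0.29 ± 0.08, -0.04 ± 0.08 and -0.24 ± 0.08 (limma adjusted p = 0.0149, 0.660 and 0.0277), and the scaled value in Klf5KO, -0.37, passed (0.00107). Scap, the escort of SREBP, was 30.2 ± 1.46 TPM in WT, 33 ± 0.644 in EgfrKO, 37.4 ± 3.71 in Klf5KO and 33.7 ± 0.771 in Smad4KO. It rose in Klf5KO as deposited (0.29 ± 0.07, limma adjusted p = 0.00267) but was at -0.02 after scaling.

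**Figure D2:**
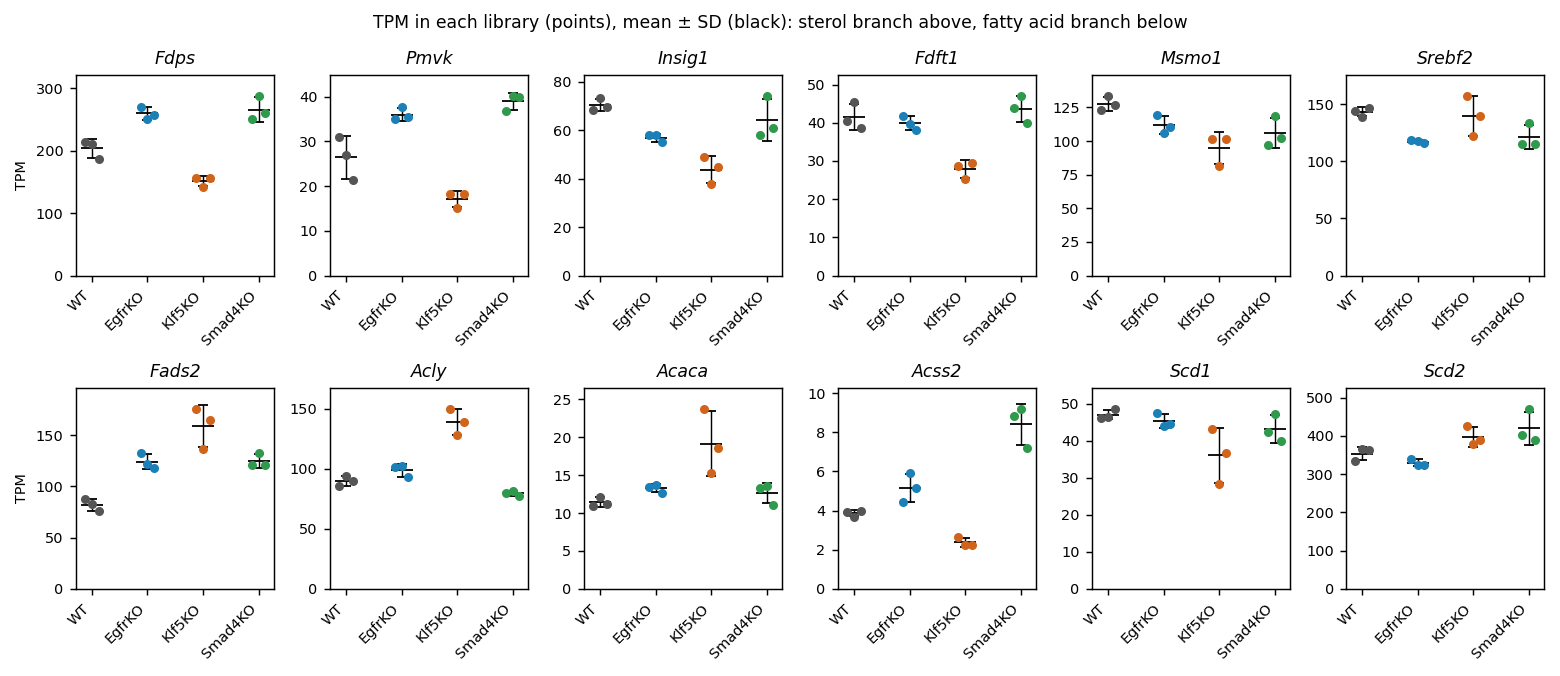
TPM (vertical axes, from 0) in each of 3 libraries per genotype (points) with the mean and SD in black, for 6 sterol branch genes above and 6 fatty acid branch genes below. Fdps, Pmvk, Insig1 and Fdft1 are lowest in the Klf5KO-labelled libraries, where Fads2, Acly and Acaca are highest, and Acss2 is highest in Smad4KO at 7.20 to 9.18 TPM.

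Promoter sequence was read for members that moved together and for members that did not, from the RefSeq table for GRCm38.p6, which holds 26 of the 33 genes; Fdps, Fdft1, Sqle, Stard4, Scd1, Scd2 and Fads1 were not matched. The 250 bases before each start were searched on both strands for CCAAT, the box bound by NF-Y, for GGGCGG, the box bound by Sp1, for TCACNCCAC, a core of the sterol regulatory element, and for CACGTG, the E-box; no motif searched contains another. Shown here are 3 sterol genes that fell in Klf5KO (Pmvk, Sc5d and Insig1), Hmgcs1, which did not pass there as deposited, and 2 fatty acid genes that rose there (Acly and Fasn), each 5′ to 3′ on the strand of its gene, with capitals marking CCAAT or its reverse complement ATTGG and any match to TCACNCCAC. The Insig1 window is printed as its first 201 bases, since the rest lies inside an annotated transcript, and its search covered all 250. The Fasn window lies before the transcript start at 120824547. It is inside the gene interval of Fasn given below, which reaches further upstream.
Hmgcs1 (chr13:119690101-119690350, plus strand): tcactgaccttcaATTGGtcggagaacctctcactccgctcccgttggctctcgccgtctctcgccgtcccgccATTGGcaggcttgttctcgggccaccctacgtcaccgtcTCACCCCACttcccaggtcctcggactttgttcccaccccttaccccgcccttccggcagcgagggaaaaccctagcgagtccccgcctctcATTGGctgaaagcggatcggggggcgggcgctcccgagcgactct
Pmvk (chr3:89454291-89454540, plus strand): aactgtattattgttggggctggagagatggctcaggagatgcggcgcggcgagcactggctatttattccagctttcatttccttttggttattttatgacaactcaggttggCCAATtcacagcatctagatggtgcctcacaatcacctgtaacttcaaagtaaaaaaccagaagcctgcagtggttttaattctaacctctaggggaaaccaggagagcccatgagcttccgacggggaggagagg
Sc5d (chr9:42264301-42264550, minus strand): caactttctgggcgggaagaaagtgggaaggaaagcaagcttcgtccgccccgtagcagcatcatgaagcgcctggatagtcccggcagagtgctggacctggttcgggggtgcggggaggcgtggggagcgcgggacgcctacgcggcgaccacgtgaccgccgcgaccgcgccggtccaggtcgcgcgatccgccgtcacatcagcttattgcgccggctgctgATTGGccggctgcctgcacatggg
Insig1 (chr5:28071162-28071362, plus strand): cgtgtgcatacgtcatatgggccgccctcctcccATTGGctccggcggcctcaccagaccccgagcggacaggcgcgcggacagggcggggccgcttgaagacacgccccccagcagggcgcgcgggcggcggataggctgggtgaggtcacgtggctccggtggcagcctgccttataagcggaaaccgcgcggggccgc
Acly (chr11:100528001-100528250, minus strand): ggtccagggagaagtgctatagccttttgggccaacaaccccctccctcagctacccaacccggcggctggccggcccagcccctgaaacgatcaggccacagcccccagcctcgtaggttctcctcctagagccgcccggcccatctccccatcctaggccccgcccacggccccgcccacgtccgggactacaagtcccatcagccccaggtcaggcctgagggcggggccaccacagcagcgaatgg
Fasn (chr11:120824548-120824797, minus strand): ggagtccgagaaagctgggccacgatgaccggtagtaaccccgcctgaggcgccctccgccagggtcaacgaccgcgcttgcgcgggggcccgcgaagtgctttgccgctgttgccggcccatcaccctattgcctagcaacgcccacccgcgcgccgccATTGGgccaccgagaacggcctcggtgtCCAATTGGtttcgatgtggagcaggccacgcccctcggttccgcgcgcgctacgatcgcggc

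Of the members matched, 17 of 19 sterol genes held CCAAT in at least 1 promoter, and 17 of their 25 promoters did, beside 33.8% of all 32851 promoters in the table. In the fatty acid branch 3 of 7 genes and 4 of 9 promoters held it. GGGCGG was found in 20 of 25 sterol promoters and 5 of 9 fatty acid promoters, beside 32.7% of all. TCACNCCAC was found only in Hmgcs1 among the members, 1 of 25 sterol promoters, beside 1.05% of all, and CACGTG in 5 of 25 sterol promoters and 0 of 9 fatty acid promoters, beside 6.02%. A match is a description of the letters and no evidence of binding. Hmgcs1, which carries 3 CCAAT boxes and the TCACNCCAC match, passed the threshold in Klf5KO only after scaling (-0.28, limma adjusted p = 0.0307). Pmvk carries 1 CCAAT box and no GGGCGG. The Fasn window held 3 CCAAT matches, of which those in CCAATTGG overlap on opposite strands, and the Acly window held none.

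The fatty acid branch held more rises than falls in Klf5KO as deposited. Of its 10 genes 5 rose there against WT, namely Acly, Acaca, Fasn, Fads1 and Fads2, and 2 fell, namely Acss2 and Scd1, with a median log2 fold change of 0.27. Of all genes 55.2% rose and 11.1% fell in that contrast, so the count of rises was near the background. After scaling 4 rose and 4 fell with a median of -0.05, beside 27.0% and 25.5%. The rises of Acly, Acaca, Fads1 and Fads2 and the falls of Acss2 and Scd1 were kept in every alternative processing and without each library, while Fasn did not pass after scaling (0.05, limma adjusted p = 0.437). In EgfrKO 3 of the 10 genes, Acss2, Fads2 and Srebf1, rose and none fell as deposited (median 0.17), and after scaling 1 rose and 1 fell (median 0.05), beside 31.3% and 12% of all genes as deposited and 20.4% and 19.9% scaled, so 3 of 10 higher was near the background. In Smad4KO 5 rose (Acss2, Scd2, Fads1, Fads2 and Srebf1) and 1, Acly, fell (median 0.25), and after scaling 3 rose and 1 fell (median 0.15), beside 32.2% and 17.4% of all genes as deposited and 25.7% and 24.4% scaled. Without Smad4KO replicate 2, 3 rose there.

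**Figure D3:**
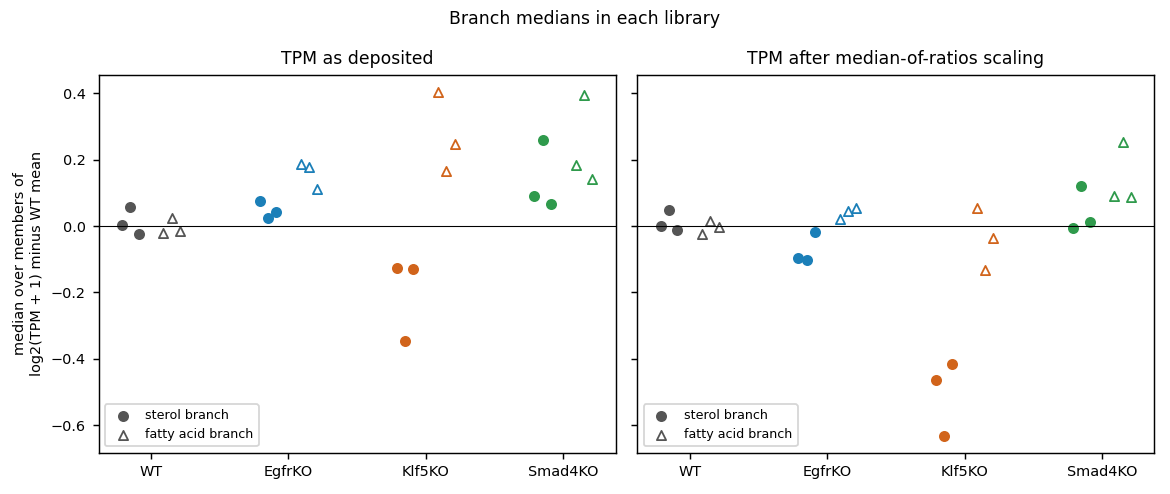
Median over the members of each branch of log2(TPM + 1) minus the WT mean (vertical axis) in each of the 12 libraries, as deposited (left) and after median-of-ratios scaling (right), with filled circles for the 23 sterol genes and open triangles for the 10 fatty acid genes. The 3 Klf5KO circles lie between -0.35 and -0.13 on the left and between -0.63 and -0.42 on the right, below every other library.

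Acetyl-CoA for fat synthesis comes from citrate through Acly and from acetate through Acss2, and the genes of both enzymes differed between the genotypes. Acly (chr11:100476352-100528000) measured 86.0, 94.0 and 89.7 TPM in WT, 102, 102 and 92.7 in EgfrKO, 150, 128 and 139 in Klf5KO and 79.7, 81.8 and 77.4 in Smad4KO. The Klf5KO libraries were far above all others, and the Smad4KO libraries were below all others. Against WT, Acly differed by 0.14 ± 0.06, 0.62 ± 0.06 and -0.17 ± 0.06 (limma adjusted p = 0.0996, 8.23e-06 and 0.0394), with scaled values of 0.02, 0.30 and -0.27. The call in Smad4KO was lost without WT replicate 2 or 3 or any Smad4KO library (0.0514 to 0.135).

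Acss2 (chr2:155518043-155562743) measured 3.93, 3.70 and 3.98 TPM in WT, 4.46, 5.90 and 5.13 in EgfrKO, 2.63, 2.27 and 2.22 in Klf5KO and 8.86, 9.18 and 7.20 in Smad4KO. The 4 groups did not overlap, with Smad4KO highest, then EgfrKO, WT and Klf5KO. Against WT, Acss2 differed by 0.33 ± 0.12, -0.53 ± 0.12 and 0.94 ± 0.12 (limma adjusted p = 0.0351, 0.00167 and 3.97e-05), with scaled values of 0.24, -0.77 and 0.87. In EgfrKO the scaled value did not pass (0.101), and the call as deposited was lost without any WT library or EgfrKO replicate 2 or 3 (0.0669 to 0.144). At these low levels the log2(TPM + 1) scale understates the change, and the mean in Smad4KO was 217% of WT.

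Malonyl-CoA and palmitate are made by Acaca and Fasn. Acaca, acetyl-CoA carboxylase (chr11:84129635-84401651), measured 10.9, 12.2 and 11.2 TPM in WT, 13.5, 13.7 and 12.7 in EgfrKO, 23.7, 15.2 and 18.6 in Klf5KO and 13.3, 13.6 and 11.1 in Smad4KO. Its Klf5KO libraries were all above the other groups but spread widely, at 0.68 ± 0.13 against WT (limma adjusted p = 0.000734; scaled 0.37, 0.0163). Fasn, fatty acid synthase (chr11:120805958-120825166), measured 55.0, 57.1 and 54.5 TPM in WT, 58.7, 57.1 and 56.2 in EgfrKO, 80.7, 65.6 and 71.1 in Klf5KO and 53.9, 58.1 and 51.2 in Smad4KO. Fasn stood apart only in Klf5KO, at 0.37 ± 0.07 (limma adjusted p = 0.000719), the call that scaling removed. Elovl6, which lengthens the product, was 8.17 ± 0.606 TPM in WT, 9.80 ± 1.17 in EgfrKO, 8.79 ± 1.5 in Klf5KO and 10.04 ± 1.35 in Smad4KO and passed in no contrast with WT.

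Stearoyl-CoA desaturases introduce the double bond of oleate. Scd1 (chr19:44394450-44407709), measured 46.1, 46.5 and 48.4 TPM in WT, 47.3, 44.0 and 44.5 in EgfrKO, 43.1, 28.2 and 36.7 in Klf5KO and 42.2, 47.3 and 39.8 in Smad4KO. Only the Klf5KO libraries were all below WT (-0.40 ± 0.12, limma adjusted p = 0.0121; scaled -0.71), and replicate 2 was far lower than replicate 1. Scd2, its neighbour 87.6 kb away (chr19:44293676-44306864), measured 335, 365 and 362 TPM in WT, 341, 325 and 324 in EgfrKO, 427, 378 and 389 in Klf5KO and 403, 470 and 389 in Smad4KO. In Klf5KO its libraries were all above WT as deposited, at 0.17 ± 0.07 (limma adjusted p = 0.0553), and its scaled value there was a fall (-0.16, 0.0383), so the direction turned with the scale. Scd2 rose in Smad4KO (0.24 ± 0.07, limma adjusted p = 0.0141), and did not pass without WT replicate 1 (0.0562), without Smad4KO replicate 2 (0.0505) and after scaling (0.0545).

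Fads1 and Fads2, the front-end desaturases that make polyunsaturated fatty acids, lie 81.4 kb apart on chromosome 19. Fads2 (chr19:10062765-10101503) measured 87.5, 82.5 and 76.1 TPM in WT, 132, 122 and 118 in EgfrKO, 175, 136 and 165 in Klf5KO and 120, 132 and 121 in Smad4KO. All 9 knockout libraries were above the highest WT library. Against WT, Fads2 differed by 0.59 ± 0.09, 0.94 ± 0.09 and 0.60 ± 0.09 (limma adjusted p = 0.000333, 5.33e-06 and 0.000189), with scaled values of 0.47, 0.61 and 0.50, in 3 contrasts that share the WT libraries. Fads1 (chr19:10182877-10196874) measured 74.0, 68.5 and 65.4 TPM in WT, 84.1, 75.8 and 76.5 in EgfrKO, 122, 98.0 and 111 in Klf5KO and 78.0, 90.4 and 79.2 in Smad4KO. It too was above WT in all 9 knockout libraries as deposited, with the Klf5KO libraries highest (0.66 ± 0.09, limma adjusted p = 4.42e-05; scaled 0.34). Unlike Fads2, Fads1 did not pass in EgfrKO against WT, as deposited or scaled. The smaller rise in Smad4KO (0.25 ± 0.09, 0.0305) was lost after scaling (0.0963) and without WT replicate 2 (0.0746), WT replicate 3 (0.105) or Smad4KO replicate 2 (0.119).

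Srebf1, the gene of SREBP-1 (chr11:60199084-60224186), measured 80.2, 80.8 and 85.5 TPM in WT, 94.1, 92.5 and 89.9 in EgfrKO, 89.2, 81.4 and 80.2 in Klf5KO and 100, 112 and 99.0 in Smad4KO. The Smad4KO libraries were the highest and the Klf5KO libraries overlapped WT. Against WT, Srebf1 differed by 0.16 ± 0.06, 0.02 ± 0.06 and 0.33 ± 0.06 (limma adjusted p = 0.0417, 0.733 and 0.000652), with scaled values of 0.04, -0.30 and 0.23. The EgfrKO call did not hold without WT replicate 1 or 2 or any EgfrKO library (0.0529 to 0.117), and the scaled value in Klf5KO passed in the downward direction (0.000242).

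Set directly against each other, Smad4KO and Klf5KO differed in the sterol branch by the direction of the calls, most of which were higher in Smad4KO. In Smad4KO 12 of the 23 genes were higher than in Klf5KO and 1, Srebf2, was lower, beside 18.3% and 45.5% of all tested genes, and after scaling 18 were higher and none lower, beside 29.8% and 30.8%. The branch median was 0.27 as deposited and 0.48 scaled. After quantile normalization 18 were higher and none lower, beside 27.5% and 33.6% of all genes. Pmvk differed most, by 1.15 ± 0.12 (limma adjusted p = 5.36e-06), followed by Fdps at 0.80 ± 0.07 (1.14e-06), Fdft1 at 0.63 ± 0.08 (4e-05) and Tm7sf2 at 0.60 ± 0.06 (5.43e-06). The calls of Acat2, Pmvk, Mvd, Idi1, Fdps, Fdft1, Tm7sf2, Sc5d and Insig1 were kept in every alternative processing and without each library. Those of Lss, Nsdhl and Stard4 were lost without Klf5KO replicate 2 (0.132, 0.144 and 0.112) or Smad4KO replicate 2 (0.107, 0.156 and 0.117), the first 2 also without Smad4KO replicate 1 (0.0799 and 0.0605). That of Srebf2 was lost without Klf5KO replicate 1 or 3 or Smad4KO replicate 1 or 3 (0.0986 to 0.208). In the fatty acid branch 2 genes were higher in Smad4KO, Acss2 (1.48 ± 0.12, 6.5e-07) and Srebf1 (0.31 ± 0.06, 0.000703), and 5 were lower, Acly (-0.79 ± 0.06, 7.43e-07), Acaca, Fasn, Fads1 and Fads2, of which Fads2 did not pass after scaling (0.195). These counts stand beside 18.3% and 45.5% of all genes, and the 5 lower were near that background. After scaling 5 were higher and 4 lower, beside 29.8% and 30.8%.

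**Figure D4:**
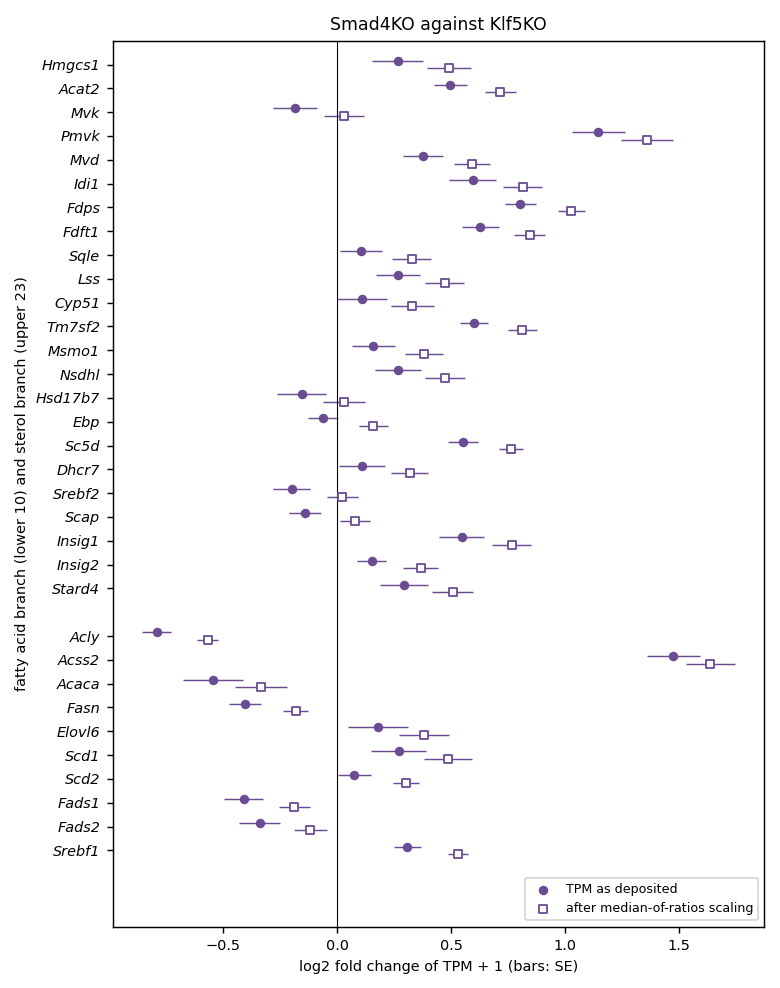
Log2 fold change of TPM + 1 in Smad4KO against Klf5KO (horizontal axis) for the 23 sterol genes (upper rows) and the 10 fatty acid genes (lower rows), with filled circles as deposited, open squares after median-of-ratios scaling and bars for the SE. Pmvk at 1.15 and Acss2 at 1.48 as deposited lie farthest to the right, and Acly at -0.79 farthest to the left.

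Against EgfrKO, the Klf5KO-labelled libraries had 12 sterol genes lower and 2, Srebf2 and Insig2, higher, beside 14.7% and 40.5% of all tested genes, and after scaling 17 lower and none higher, beside 26.4% and 25.8%. After quantile normalization 17 were lower and none higher, beside 24.0% and 28.8%. The largest falls were in Pmvk (-1.04 ± 0.12, limma adjusted p = 2.41e-05), Fdps (-0.77 ± 0.07, 4.05e-06) and Tm7sf2 (-0.72 ± 0.06, 3.43e-06). Of the 12 falls, 9 were kept in every alternative processing and without each library. Msmo1 and Nsdhl lost their calls without any EgfrKO library or Klf5KO replicate 2 (0.0517 to 0.184). Lss lost its call without EgfrKO replicate 2 (0.059) or Klf5KO replicate 2 (0.0818). In the fatty acid branch 6 genes were higher and 2 lower, with Acss2 at -0.87 ± 0.12 (7.86e-05) and Acly at 0.48 ± 0.06 (6.87e-05), and after scaling 2 were higher and 4 lower, beside the same 40.5% and 14.7% as deposited and 25.8% and 26.4% scaled. Without EgfrKO replicate 2 or 3 or Klf5KO replicate 1 or 3 the Srebf2 call was lost (0.0555 to 0.101), and without EgfrKO replicate 1 or 2 or Klf5KO replicate 3 that of Insig2 (0.0632 to 0.0727). The fall of Scd1 was lost without any EgfrKO library or Klf5KO replicate 2 (0.0523 to 0.0927). Smad4KO against EgfrKO gave the fewest calls in the sterol branch, with 4 genes higher in Smad4KO (Hmgcs1, Idi1, Sc5d and Insig2) and 2 lower (Mvk and Ebp), beside 14.5% and 18.7% of all tested genes, and 5 and 1 after scaling, beside 17.9% and 18.3%. After quantile normalization 5 were higher and 2 lower, beside 17.2% and 19.3%. Of these, Hmgcs1 (0.46 ± 0.11, limma adjusted p = 0.0081) and Insig2 (0.34 ± 0.06, 0.00153) were kept without each library, as were 2 of the 3 fatty acid genes higher in Smad4KO, Acss2 (0.61 ± 0.12, 0.00191) and Scd2 (0.34 ± 0.07, 0.00331), and the single gene that was lower, Acly (-0.31 ± 0.06, 0.00301). The Idi1 call was lost without Smad4KO replicate 2 (0.0529), that of Sc5d without EgfrKO replicate 2 or 3 or Smad4KO replicate 1 or 2 (0.0653 to 0.119), that of Mvk without any EgfrKO library or Smad4KO replicate 1 or 3 (0.0631 to 0.133), and that of Ebp without EgfrKO replicate 1 or 3 or Smad4KO replicate 1 or 3 (0.0564 to 0.115).

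In the Klf5KO and Smad4KO groups the same library was the lowest or highest for most members as deposited. Klf5KO replicate 2 was the lowest of its group for 21 of 23 sterol genes and 8 of 10 fatty acid genes, and Klf5KO replicate 1 was the highest for 17 and 10. Smad4KO replicate 2 was the highest of its group for 21 of 23 sterol genes and 10 of 10 fatty acid genes. The share over all tested genes was not counted. Scaling divided the values by 1.179, 1.122 and 1.123 in Klf5KO replicates 1, 2 and 3, and by 0.977, 1.006 and 0.947 in those of Smad4KO. Genes in general were thus also highest as deposited in Klf5KO replicate 1 and Smad4KO replicate 2 of these groups. The median of the sterol branch relative to WT was -0.35 in Klf5KO replicate 2 against -0.13 in both other Klf5KO libraries, and 0.26 in Smad4KO replicate 2 against 0.09 and 0.07. After scaling it was -0.63 in Klf5KO replicate 2 against -0.46 and -0.42, and 0.12 in Smad4KO replicate 2 against -0.0067 and 0.013. Marker levels also differed between these libraries. Smad4KO replicate 2 had a macrophage marker sum of 182 TPM against 804 and 795 and a leukocyte marker sum of 50.3 against 89.4 and 93.7, and Klf5KO replicate 1 had a fibroblast marker sum of 612 TPM against 291 and 371. The part of these differences in the members' values was not tested. Without Smad4KO replicate 2, 10 sterol genes were higher in Smad4KO than in Klf5KO, and without Klf5KO replicate 2, 9 were. The shares of all tested genes in these fits are not given.

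The neighbouring pathways were taken from lists chosen by function, with earlier results of these data known. Their counts stand beside the same shares of all tested genes: higher and lower, 31.3% and 12% in EgfrKO, 55.2% and 11.1% in Klf5KO and 32.2% and 17.4% in Smad4KO as deposited, and 20.4% and 19.9%, 27.0% and 25.5%, and 25.7% and 24.4% scaled. Of 9 genes that process SREBP or degrade sterol-regulated proteins, 9 rose and none fell in Klf5KO (median 0.65; after scaling 6 rose and none fell, median 0.33), none passed in EgfrKO as deposited (after scaling 2 fell), and 2 rose and 2 fell in Smad4KO (scaled 2 and 3). Erlin1, part of the complex that directs reductase and INSIG degradation, was 17.1 ± 1.32 TPM in WT and 29.7 ± 1.52 in Klf5KO, and Faf2, which helps to extract proteins for degradation, was 30.4 ± 0.224 in WT, 51.5 ± 4.01 in Klf5KO and 45.7 ± 3.09 in Smad4KO. In Smad4KO Erlin2 also rose (0.39 ± 0.06, limma adjusted p = 0.000189), and Rnf145 (-0.24 ± 0.06, 0.00709), a ubiquitin ligase of the endoplasmic reticulum, fell. Of 10 genes of the isoprenoid branch, which draws on farnesyl diphosphate, 9 rose and 1 fell in Klf5KO (scaled 3 and 1), 4 rose and none fell in EgfrKO (scaled 3 and 1) and 6 rose and none fell in Smad4KO (scaled 3 and 1), so the scaled rises were near the background in Klf5KO (27.0%) and in Smad4KO (25.7%). Dhdds, for dolichol, rose from 13.6 ± 0.608 TPM in WT to 23.8 ± 1.08 in Klf5KO, and Pggt1b, a prenyltransferase subunit, from 13.2 ± 0.954 to 22.2 ± 1.55, while Rabggtb fell from 103 ± 3.34 to 88.5 ± 7.35. Coq2, of ubiquinone synthesis, rose in EgfrKO (0.34 ± 0.08, limma adjusted p = 0.00597) and Smad4KO (0.41 ± 0.08, 0.00124), as did Pdss2 in EgfrKO (0.59 ± 0.15, 0.00926) and Pdss1 in Smad4KO (0.38 ± 0.15, 0.0477, not past the threshold after scaling, 0.0923). Coq2, Pdss1 and Pdss2 were also among the 9 that rose in Klf5KO as deposited, but passed there no longer after scaling.

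Of 14 genes of cholesterol uptake, storage and export, 8 rose and 2 fell in Klf5KO (scaled 5 and 4), 3 rose and 2 fell in EgfrKO (scaled 3 and 4), and 3 rose and 5 fell in Smad4KO (scaled 3 and 6). The 8 rises in Klf5KO were near the background of 55.2%. Soat1, which esterifies cholesterol for storage, was 26.3 ± 1.60 TPM in WT, 38.5 ± 2.07 in Klf5KO and 12.2 ± 0.578 in Smad4KO, a fall in the latter (-1.05 ± 0.07, limma adjusted p = 2.23e-07). Lipa, the lysosomal lipase, was 51.3 ± 3.85 TPM in WT, 89.2 ± 4.59 in EgfrKO, 78.4 ± 10.1 in Klf5KO and 113 ± 4.16 in Smad4KO, and Lpcat3, a phospholipid acyltransferase, was 53.6 ± 3.61 in WT and 99.8 ± 2.35 in Smad4KO. In Klf5KO Lrp8, a lipoprotein receptor, rose (0.83 ± 0.13, 0.000168), as it did in EgfrKO (0.44 ± 0.13, 0.0172), and Abca1, a cholesterol exporter, rose as deposited (0.74 ± 0.22, 0.0104) but not after scaling (0.120). Npc2, a lysosomal cholesterol carrier, fell in EgfrKO (-0.26 ± 0.05, 0.00145) and Klf5KO (-0.24 ± 0.05, 0.00111).

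Of 22 genes of elongation, activation and glycerolipid assembly 20 were tested, and 11 rose and 5 fell in Klf5KO (scaled 5 and 9), 7 and 2 in EgfrKO (scaled 3 and 2), and 8 and 2 in Smad4KO (scaled 7 and 2). The rises were near the background of 55.2% in Klf5KO and 31.3% in EgfrKO as deposited. Me1, malic enzyme, a source of NADPH for fat synthesis, was 106 ± 5.93 TPM in WT, 163 ± 6.69 in EgfrKO, 123 ± 1.20 in Klf5KO and 244 ± 24.5 in Smad4KO. Plin2, a coat protein of lipid droplets, was 274 ± 15, 125 ± 6.52, 181 ± 17.1 and 138 ± 2.50 TPM in that order and fell in all 3 contrasts with the shared WT libraries (limma adjusted p = 7.75e-07, 1.92e-05 and 4.84e-07). Dgat2, which makes triglyceride, was 6.18 ± 0.985 TPM in WT, 5.88 ± 0.709 in EgfrKO, 1.29 ± 0.246 in Klf5KO and 10.6 ± 0.535 in Smad4KO, and the adipocyte list's Cidec, another droplet protein, measured 3.36 to 4.61 TPM in WT, 7.36 to 8.95 in EgfrKO, 0.852 to 2.05 in Klf5KO and 17.97 to 20.2 in Smad4KO. The adipocyte list's Fabp4 was 0.424 to 5.51 TPM over all 12 libraries. Agpat2, an acyltransferase of glycerolipid synthesis, rose in EgfrKO (0.46 ± 0.06, limma adjusted p = 7.51e-05). It also rose in Smad4KO, where its mean was 54.2 TPM against 42.3 in EgfrKO, and in Klf5KO as deposited but not scaled. Lpin1, a phosphatidate phosphatase, fell in EgfrKO (-0.40 ± 0.11, 0.0133) and in Klf5KO. Elovl7, an elongase, rose in Klf5KO (0.63 ± 0.10, 0.000137) and Smad4KO (0.86 ± 0.10, 1.77e-05). Hacd3, another elongation enzyme, rose in Klf5KO (0.63 ± 0.08, 5.2e-05), and in EgfrKO as deposited but not scaled. Of a sebocyte and keratinocyte list of 6, Krt14 was 94.5 to 105 TPM in WT and 104 to 114 in EgfrKO, and 48.6 to 53.8 in Klf5KO and 47.8 to 52.5 in Smad4KO. Krt79 was 1.33 to 1.64 TPM in Klf5KO and 12.6 to 25.9 in the other 3 groups, and Elovl3, a sebocyte gene, was listed at 0 in all libraries. The part of these cells in the lipid genes was not tested.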

How the data were processed

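RNA-seq values were taken from the deposited gene table, in which the authors give TPM per gene symbol for 12 libraries, 3 per genotype; Salmon and the mm10 build are named per the submitters' processing notes, with versions not given in the sources used here. Read depth cannot be recovered from TPM and is unknown here, and no counting interval is given; the libraries had 12592 to 13141 genes at 1 TPM or more. The 13662 genes that reached 1 TPM in 3 or more libraries were fitted as log2(TPM + 1) with limma 3.58.1 in R 4.3.3, in a single fit of the 4 groups with a trended prior and 8 residual degrees of freedom, over 6 contrasts, with Benjamini-Hochberg adjustment within each contrast and a threshold of 0.05. The fit was tested on simulated data. Samples were grouped by their labels.

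Alternatives were a pseudocount of 0.1, no filter, median-of-ratios scaling (factors from 9005 genes at TPM 5 or more in every library), quantile normalization, a fit of the 2 groups compared, a replicate block and leaving out each library. The members and lists were chosen with earlier results of these data known. All members and targeted genes are named, with, from each pathway list and contrast with WT, up to 2 genes with the largest increase and up to 2 with the largest decrease among those past the threshold whose TPM averaged 5 or more, and the 2 highest genes of each cell type list; Lep, Elovl3 and the listed markers at 0 were added after their values were seen. Some genes that this rule takes are not reported here. Gene coordinates and promoters are both from RefSeq on GRCm38, and the printed Insig1 window ends before the GENCODE start of that gene. A comparison of proteins was not analysed here.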

Additional observations from a re-analysis of the deposited data

Results flagged for a closer look

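Genes called in opposite directions against WT in a pair of knockouts are listed here with the difference between those knockouts. Since WT cancels, these are the direct contrasts already given, for genes picked by their calls, and they add no separate support. Klf5KO against EgfrKO gave log2 differences of -0.594 for Acat2, -1.04 for Pmvk, -0.772 for Fdps, -0.716 for Tm7sf2 and -0.866 for Acss2, genes that rose against WT in EgfrKO and fell in Klf5KO. The scaled differences were -0.79, -1.23, -0.973, -0.906 and -1.01. Smad4KO against Klf5KO gave 0.497 for Acat2, 1.15 for Pmvk, 0.804 for Fdps, 0.601 for Tm7sf2, 0.551 for Sc5d, 1.48 for Acss2 and -0.792 for Acly. The scaled values were 0.716, 1.36, 1.03, 0.813, 0.765, 1.64 and -0.569.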

How the results depend on the processing

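For the sterol branch median-of-ratios scaling gave 8 lower in EgfrKO against WT, 0 higher and 20 lower in Klf5KO against WT, 6 lower in Smad4KO against WT, 0 higher in Klf5KO against EgfrKO, 1 lower in Smad4KO against EgfrKO and 0 lower in Smad4KO against Klf5KO. For the fatty acid branch it gave 1 higher and 1 lower in EgfrKO, 4 lower in Klf5KO and 3 higher in Smad4KO against WT, 2 higher and 4 lower in Klf5KO against EgfrKO, and 5 higher in Smad4KO against Klf5KO. Quantile normalization gave 5 sterol genes higher in EgfrKO, 0 higher in Klf5KO, and 3 higher and 5 lower in Smad4KO against WT, 0 higher in Klf5KO against EgfrKO and 0 lower in Smad4KO against Klf5KO, and for fatty acid genes 1 higher in EgfrKO against WT, 4 lower in Klf5KO against EgfrKO and 4 higher in Smad4KO against Klf5KO. With no filter, 1 sterol gene was lower in Smad4KO against EgfrKO and 0 in Smad4KO against Klf5KO, and 1 fatty acid gene was higher in EgfrKO and 0 lower in Smad4KO against WT and 1 lower in Klf5KO against EgfrKO. A pseudocount of 0.1 gave 0 sterol genes lower in Smad4KO against Klf5KO. Fits of the 2 groups compared gave 1 sterol gene higher in Klf5KO against WT, 1 lower in Smad4KO against EgfrKO and 0 lower in Smad4KO against Klf5KO, and 1 fatty acid gene lower in Klf5KO against EgfrKO. Libraries with the same number did not deviate together (r from -0.149 to 0.116 over 18 pairs), and with a replicate block 1 sterol gene was higher in Klf5KO against WT, 0 lower in Smad4KO against EgfrKO, 0 lower in Smad4KO against Klf5KO, and 0 fatty acid genes lower in Smad4KO against WT. The cause of these moves was not tested. For the fits with no filter, another pseudocount, 2 groups or a replicate block, the share of all tested genes is not given.

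In Klf5KO against WT, log2 values of the other sign followed scaling for Hmgcs1 (-0.28), Mvk (-0.066), Lss (-0.24), Ebp (-0.15), Scap (-0.022), Scd2 (-0.16) and Srebf1 (-0.30), and quantile normalization for Mvk (-0.090), Lss (-0.31), Ebp (-0.11), Scap (-0.029) and Srebf1 (-0.20). Srebf2 in Smad4KO against Klf5KO became 0.023 after scaling, and Insig2 in Klf5KO against EgfrKO became -0.00080 after scaling and -0.0061 after quantile normalization. Leaving out each library gave, for sterol genes, 1 to 4 lower in EgfrKO, 1 to 3 higher in Klf5KO, and 4 to 8 higher and 1 to 3 lower in Smad4KO against WT, 0 to 4 higher in Klf5KO against EgfrKO, 2 to 5 higher and 0 to 3 lower in Smad4KO against EgfrKO, and 0 to 2 lower in Smad4KO against Klf5KO. For fatty acid genes it gave 1 to 2 higher in EgfrKO and 3 to 5 higher and 0 to 1 lower in Smad4KO against WT, and 1 to 3 lower in Klf5KO against EgfrKO.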

Other observations

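Genes of mitochondrial and peroxisomal fatty acid oxidation, the breakdown pathway, were higher in Smad4KO. Of 19 genes 16 rose and none fell against WT (median log2 fold change 0.44), and after scaling 14 rose and 1 fell (median 0.34), beside 32.2% and 17.4% of all genes as deposited and 25.7% and 24.4% scaled. Acadm, a medium-chain acyl-CoA dehydrogenase, was 61.3 ± 4.61 TPM (SD, n = 3) in WT, 94.6 ± 4.14 in EgfrKO, 72.2 ± 2.71 in Klf5KO and 110 ± 5.11 in Smad4KO. Hadhb, a subunit of the trifunctional protein, was 42.7 ± 0.839 TPM in WT and 76.2 ± 4.87 in Smad4KO. In EgfrKO 13 rose and 1 fell (scaled 9 and 1), beside 31.3% and 12% (scaled 20.4% and 19.9%), with Hadh at 80.8 ± 1.92 TPM in WT and 114 ± 3.99 in EgfrKO, and Eci2 lower there (-0.17 ± 0.06, limma adjusted p = 0.0308). In Klf5KO the direction turned with the scale, with 11 higher and 1 lower as deposited and 1 higher and 9 lower after scaling, beside 55.2% and 11.1% and then 27.0% and 25.5% of all genes, so the 11 were near the background. Cpt1a, which admits fatty acids to mitochondria, kept its rise there (0.50 ± 0.08, limma adjusted p = 0.000265; scaled 0.18, 0.0395), and Acads did not (0.49 ± 0.08, 0.000342; scaled 0.17, 0.0798).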
